A study of Mus musculus with 2 samples.

Results

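The elastic fibre genes described here are 10 genes chosen by symbol: Eln, Fbn1, Fbn2, Mfap4, Mfap5, Fbln1, Fbln2, Efemp1, Efemp2 and Fbln5. They were read out of 32285 genes in single-cell RNA libraries of injured mouse tendon, and each symbol matched 1 gene. The injury site was taken 14 days after surgery from mice 12 weeks old. One library held cells pooled from 3 TrkA WT mice and is titled Control, and the other held cells pooled from 3 TrkA F592A mice and is titled INMPP1. The labels do not say what INMPP1 stands for or what the WT mice received, so the allele and a treatment cannot be told apart. The labelled cell type is tenocytes with the injured area. With 1 library per genotype there is no replicate and no test between genotypes. Intervals below are exact 95% intervals that cover counting error only.

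Cell filters left 11257 cells of the WT library and 8444 of the F592A library. The median cell held 15870 (WT) and 17886.5 (F592A) unique molecular identifiers (UMIs, counted transcripts). Cells were sorted into types by marker genes, none of which is among the 10 genes. The stromal gate (Pdgfra, Dpt, Lum, Dcn and collagen genes) took 6624 WT and 4757 F592A cells. Tnmd, a tendon cell marker, was present in the stromal cells at 1186 (WT) and 1429 (F592A) CPM, which stands for UMIs of a gene per 1000000 UMIs of the cell type. In tenocyte-like cells it reached 3592 (WT) and 3579 (F592A) CPM. In all, 764 cell barcodes occurred in both libraries, and 114 WT and 111 F592A cells with such barcodes were kept. Without them the stromal log2 ratio of Eln was 0.59 in place of 0.61. It was 1.76 with and without them in smooth muscle, and 0.85 in place of 0.83 in blood endothelium. The stromal ratios of the other 9 genes moved by less. Near the cut of the stromal gate, between 0.8 of its score and its score divided by 0.8, lay 185 WT and 111 F592A cells. For smooth muscle 488 and 311 cells lay in that window. Both counts are over all cells, including those that failed the gate or went to another type. A narrower window around the subset cut held 648 and 445 stromal cells. Names of stromal subsets, such as Gdf10-gated, stand for the marker genes of the gate and not for an established cell type.

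Elastic fibres consist of a core of crosslinked elastin, deposited on a scaffold of microfibrils. Fibrillins form the microfibrils, microfibril-associated proteins bind to them, and fibulins link elastin to the scaffold and to the enzymes that crosslink it. In tendon, elastic fibres lie between fascicles and around cells, and in vessels they give the wall its recoil.

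Stromal cells gave most UMIs of each of the 10 genes. Their share ranged from 92.3% (Fbln5) to 98.5% (Mfap4) in WT and from 86.7% (Eln) to 98.8% (Mfap4) in F592A, where stromal cells held 75.9% and 72.0% of the UMIs of all genes. Smooth muscle and pericytes together gave 2.08% of Eln UMIs in WT and 6.31% in F592A. Endothelial cells gave 3.09% and 5.32% of Eln UMIs, and 4.96% and 8.65% of Fbln5 UMIs. In macrophages the 10 genes stood between 0.997 CPM (Efemp1) and 24.7 CPM (Mfap5) in WT. In neutrophils, which are not known to make these genes, Mfap5 stood at 110.6 (WT) and 43.8 (F592A) CPM, and Fbn1 at 64.7 and 35.8 CPM. No expression was read from leukocyte levels of this order. Of the 10 genes, 2 passed the filter given next in macrophages, Fbn1 (20.3 against 11.4 CPM) and Mfap5 (24.7 against 14.8 CPM). Both were at least 1.5-fold lower in F592A, where 3.55% of genes were apart and 2.1% lower, and both lay under the neutrophil level. In dendritic cells, neutrophils and T or NK cells 0 passed. A UMI count carries no correction for gene length, so levels are compared within a gene and not between genes.

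**Figure D1:**
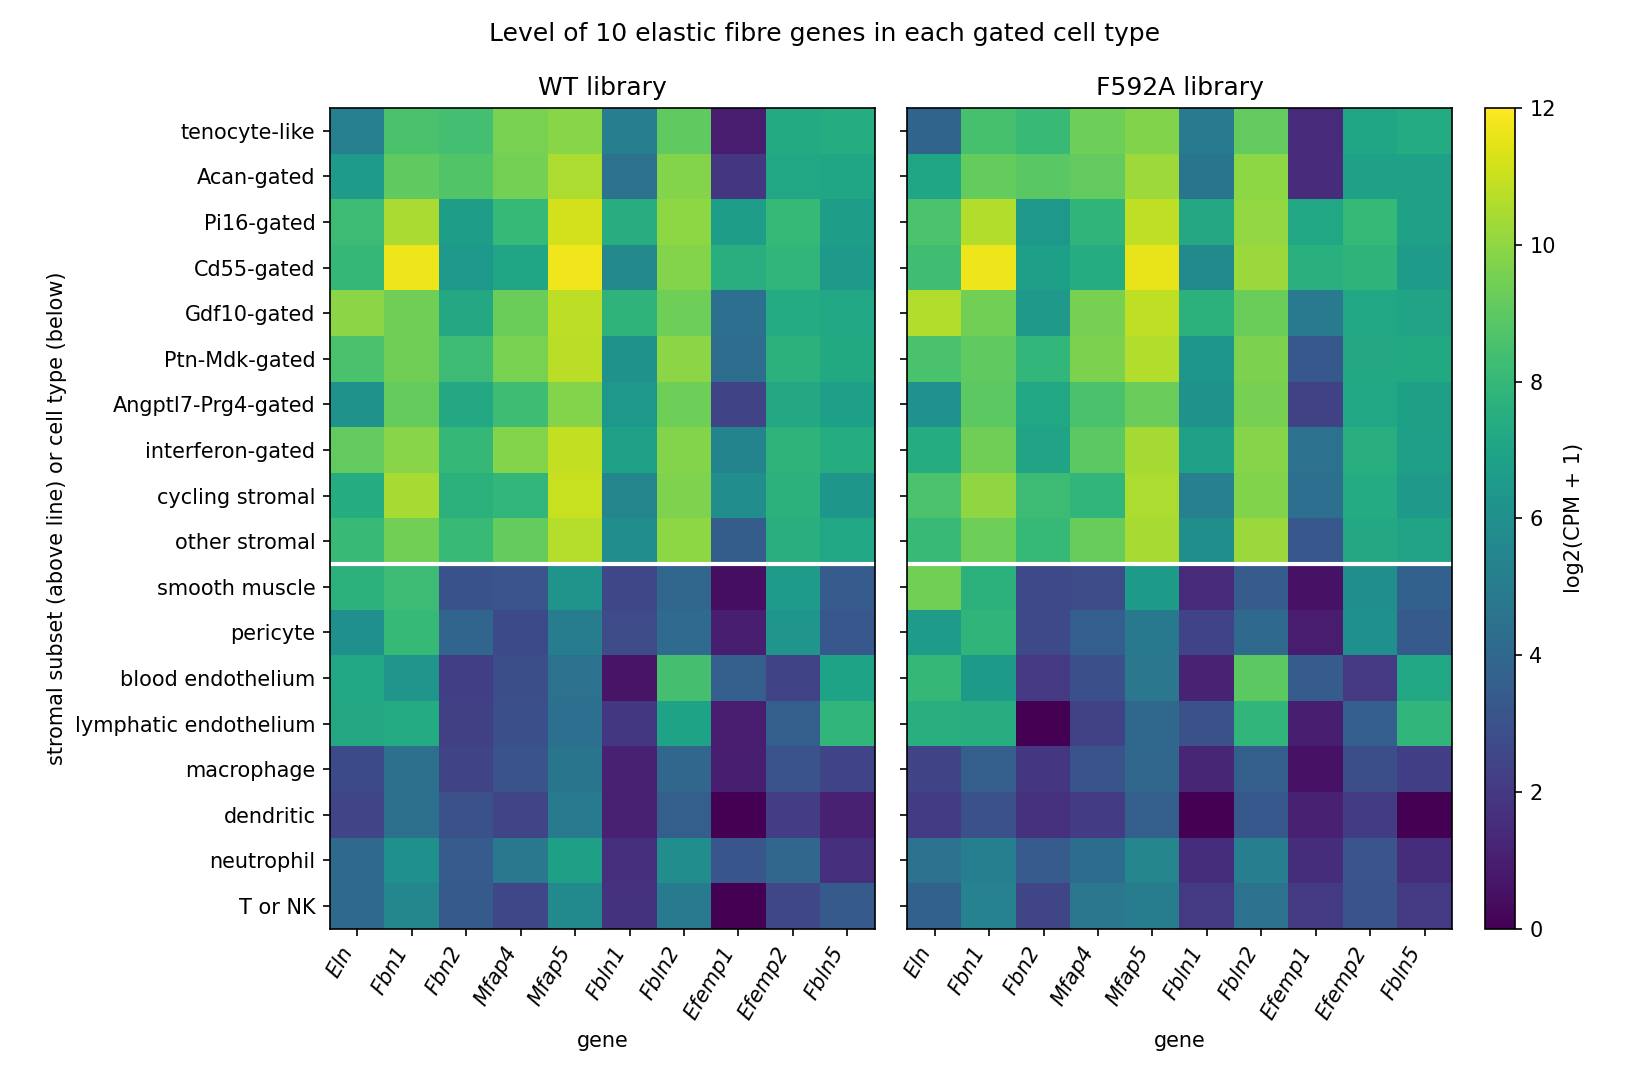
Levels of the 10 genes as log2(CPM + 1) in 10 stromal subsets (above the white line) and 8 other cell types (below it), in the WT and the F592A library. Each column is to be read down a gene; Eln is brightest in Gdf10-gated cells, Fbn1, Mfap5 and Efemp1 in Cd55-gated cells, and Fbln5 in lymphatic endothelium.

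In stromal cells all 10 genes passed the filter of at least 100 UMIs over both libraries and 20 CPM in the higher library. Of these, 1 gene, Eln, was at least 1.5-fold apart between libraries, and it was higher in F592A. Over all genes that passed, 193 of 5452, or 3.54%, were at least 1.5-fold apart, with 1.83% higher and 1.71% lower in F592A. None of the 10 was 2-fold apart, and 0.642% of genes were. The other 9 genes had log2 ratios from -0.32 to 0.24. The median over the 10 was -0.08, beside -0.10 over all genes that passed.

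**Figure D2:**
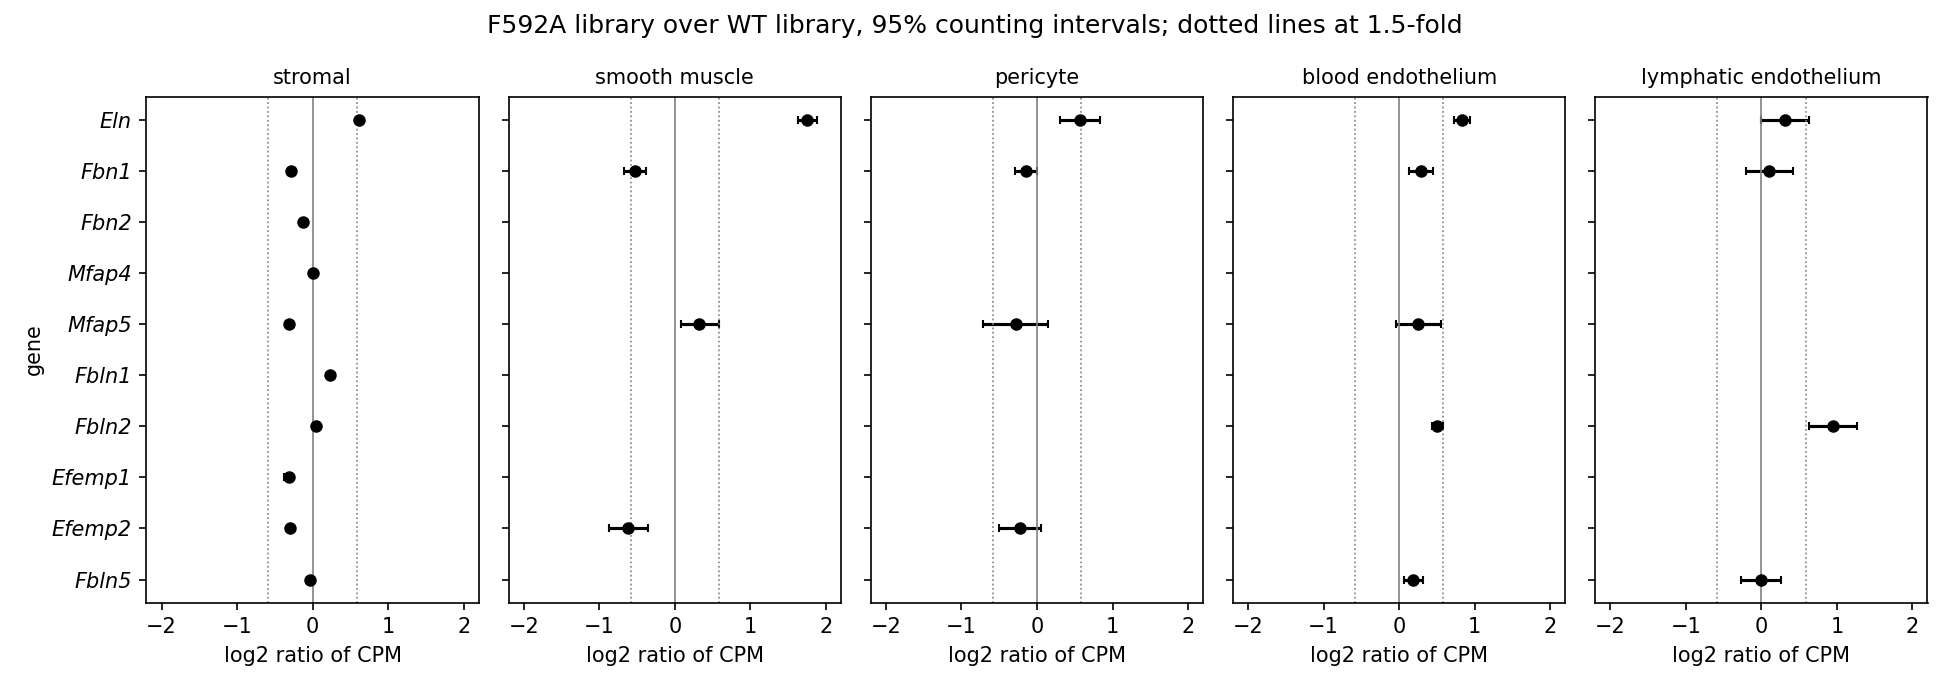
Log2 ratios of CPM, F592A over WT, for the members that passed the filter in each of 5 cell types, with exact 95% counting intervals and dotted lines at 1.5-fold. Eln lies right of 0 in all 5 panels, with its interval at 0 in lymphatic endothelium, and is farthest right in smooth muscle (1.76).

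Elastin itself is encoded by Eln (chromosome 5, 134702593 to 134747323, minus strand, mm10). In stromal cells it stood at 224 CPM in WT (34872 UMIs) and 342 CPM in F592A (41924 UMIs). The F592A library was 1.53-fold higher, a log2 ratio of 0.61 (interval 0.59 to 0.63). Most stromal cells held little of it. The tenth of cells with the highest levels held 85.3% of stromal Eln UMIs in WT and 84.6% in F592A. Cells with at least 1000 CPM of Eln numbered 375 in WT, or 5.66%, and 395 in F592A, or 8.30%. When every cell was thinned to 2000 UMIs, 15.3% of WT stromal cells (14.4% to 16.2%) and 19.5% of F592A stromal cells (18.3% to 20.6%) had an Eln UMI. The same thinned share was 4.5% and 4.2% in neutrophils. Before thinning it was 39.4% and 45.6% in stromal cells, at a median depth of 22126 and 24411 UMIs against 2498 and 3054 in neutrophils.

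Among the stromal subsets Eln was highest in Gdf10-gated cells, at 967 CPM in WT (933 to 1001) and 1553 CPM in F592A (1531 to 1575). Few of these cells held most of it. A single cell held 10.7% of the gate's Eln UMIs in WT and 3.16% in F592A, and the top 10% of cells held 81.9% and 62.4%. The median cell stood at 84.5 and 214 CPM. Eln was lowest in tenocyte-like cells, gated on Tnmd, Kera, Scx, Mkx and other tendon genes, at 36.2 (WT) and 13.7 (F592A) CPM. In WT the highest subset exceeded the lowest 26.7-fold. In tenocyte-like cells of WT, 21.2% of the 759 Eln UMIs came from 1 cell. The F592A level there, 13.7 CPM (12.1 to 15.4), did not exceed that of neutrophils of the same library. The neutrophil level was 21.9 CPM on 11 UMIs (10.9 to 39.1), and macrophages of that library stood at 4.56 CPM. No fold is therefore given for F592A.

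Between the libraries the direction of Eln depended on the subset. Eln was higher in F592A in Gdf10-gated cells (log2 ratio 0.68), in cycling stromal cells (172 against 383 CPM, 1.15), in Acan-gated cells (94.6 against 130 CPM, 0.46), in Pi16-gated cells (297 against 393 CPM, 0.40) and in Cd55-gated cells (253 against 314 CPM, 0.31). It lay between -0.05 and -0.01 in Ptn-Mdk-gated, Angptl7-Prg4-gated and other stromal cells. It was lower in F592A in interferon-gated cells (549 against 171 CPM, -1.68), of which F592A had 63. In tenocyte-like cells the ratio was -1.40, with the F592A level not above that of neutrophils, as given above. The share of tenocyte-like cells with an Eln UMI was 13.6% (WT) and 13.7% (F592A) before thinning. After thinning it was 2.99% (1.95% to 4.39%) and 2.15% (1.21% to 3.51%), with intervals that overlap. The tenth of these cells with the most Eln UMIs held 96.0% and 90.4% of them. Inside the interferon gate the 3 gate genes summed to 699 (WT) and 281 (F592A) CPM. The 7 tenocyte genes there summed to 2793 and 4808 CPM. Whether the gate held different cells or the same cells with other expression was not tested. The part of these values in the Eln ratio was not tested either. In cycling cells the share of cells with an Eln UMI did not follow the level: it was 47.0% (WT) and 42.1% (F592A), and 13.3% and 12.7% after thinning. Cells at 1000 CPM or more were 4.34% and 4.40% of them, 19 and 7 cells, so few cells carried the higher F592A level. The differences between subsets were not tested, since each rests on 1 library per genotype. Of the members in Gdf10-gated cells, Eln was higher and Fbn2 lower by at least 1.5-fold, where 9.06% of genes were that far apart. None was 1.5-fold apart in Acan-gated (3.72% of genes apart), Pi16-gated (6.95%), Cd55-gated (6.67%), Ptn-Mdk-gated (5.79%), Angptl7-Prg4-gated (4.14%) or other stromal cells (3.11%). In tenocyte-like cells 1 of the 9 members that passed was lower (3.57% apart), namely Eln, whose F592A level there did not exceed that of neutrophils. In cycling cells 1 was higher and 1 lower of 10 (5.72%).

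**Figure D3:**
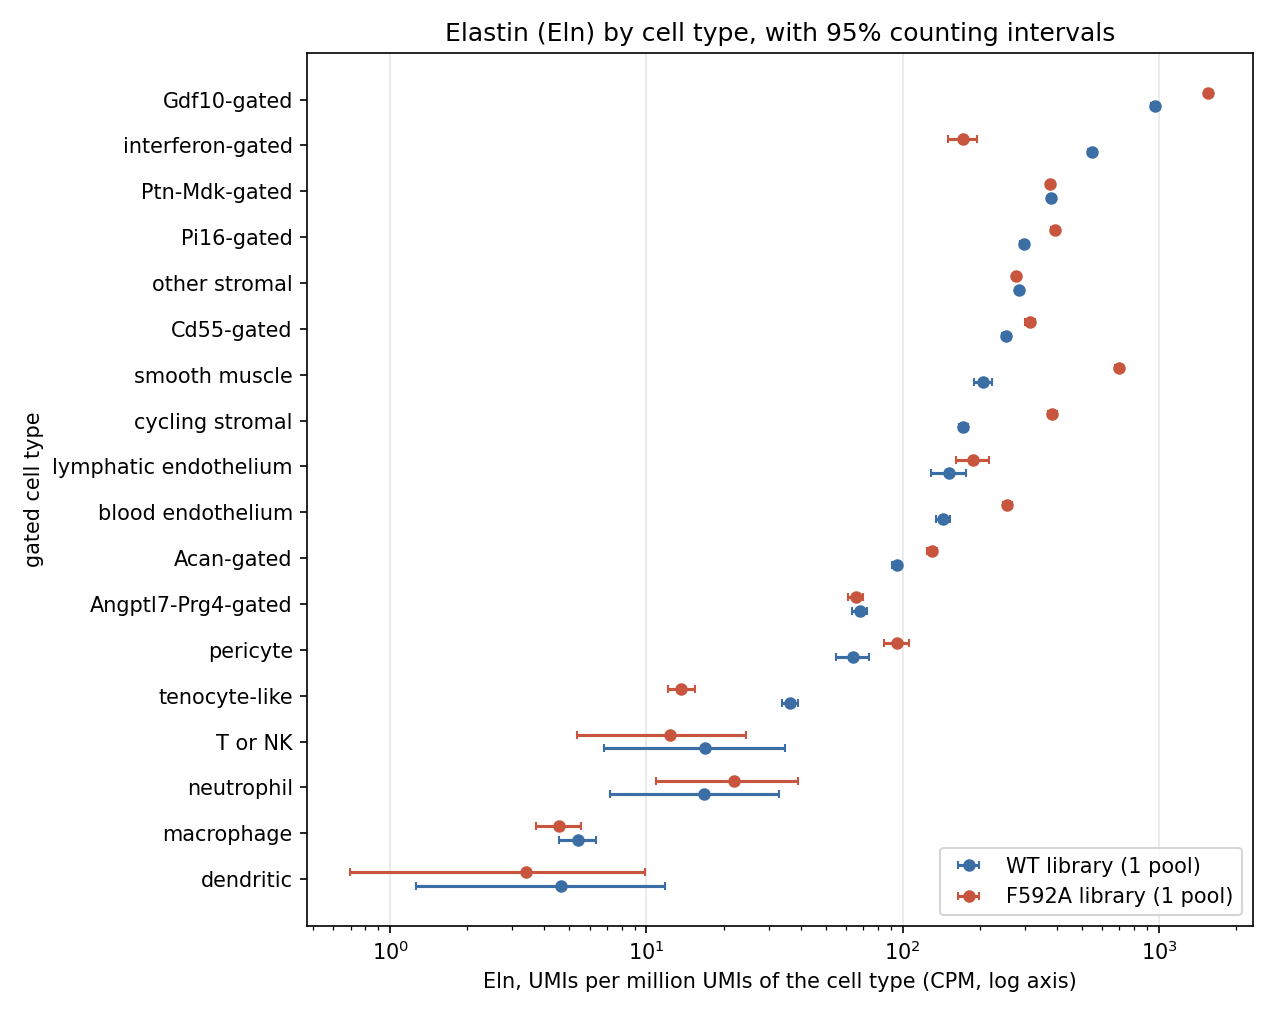
Eln in CPM (log axis) in each gated cell type of the WT and the F592A library, ordered by the WT level, with exact 95% counting intervals. The gap between libraries is widest upward in smooth muscle (206 against 697 CPM) and widest downward in interferon-gated cells (549 against 171 CPM).

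Gdf10-gated cells held 9.17% of stromal Eln UMIs in WT and 46.0% in F592A. The gate took 230 WT and 684 F592A cells, 3.47% and 14.4% of stromal cells. With these cells left out, an alternative chosen after the values were seen, the stromal log2 ratio of Eln was -0.02, and no member was at least 1.5-fold apart. That value sums subsets that were higher in F592A and subsets that were lower. With all stromal subsets weighted equally it was 0.25. The genes of the gate themselves differed between libraries, with Gdf10 at 97.7 (WT) and 211 (F592A) CPM inside the gate, so the number of gated cells is not a measure of how many such cells there were. How far the ratio comes from more cells in the gate or from more Eln per cell was not tested, and digestion of separate pools moves with the genotype and cannot be told apart from it. In clusters built without the 10 genes the Eln ratio also varied. The cluster with the highest F592A level of Eln held 80.7% of Gdf10-gated cells, with 1162 WT and 1506 F592A cells, and there Eln stood at 478 and 920 CPM, a log2 ratio of 0.95. A cluster of 294 WT and 94 F592A cells with none of the Gdf10-gated cells had a larger ratio (156 against 320 CPM, 1.04), and 1 with 2.08% of them had 0.68 at low levels (20.8 against 33.4 CPM). A cluster with 11.5% of them went the other way (392 against 295 CPM, -0.41). The remaining stromal clusters lay near even, with log2 ratios of 0.10, 0.08 and 0.06. Depth moved with the value: stromal cells deeper than the median gave 0.39 and the others 1.06, and Gdf10-gated cells gave 1.18 and 0.37. The 9 macrophage markers summed to 57.9 (WT) and 34.1 (F592A) CPM in stromal cells. The part of depth and of these markers in the result was not tested.

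**Figure D4:**
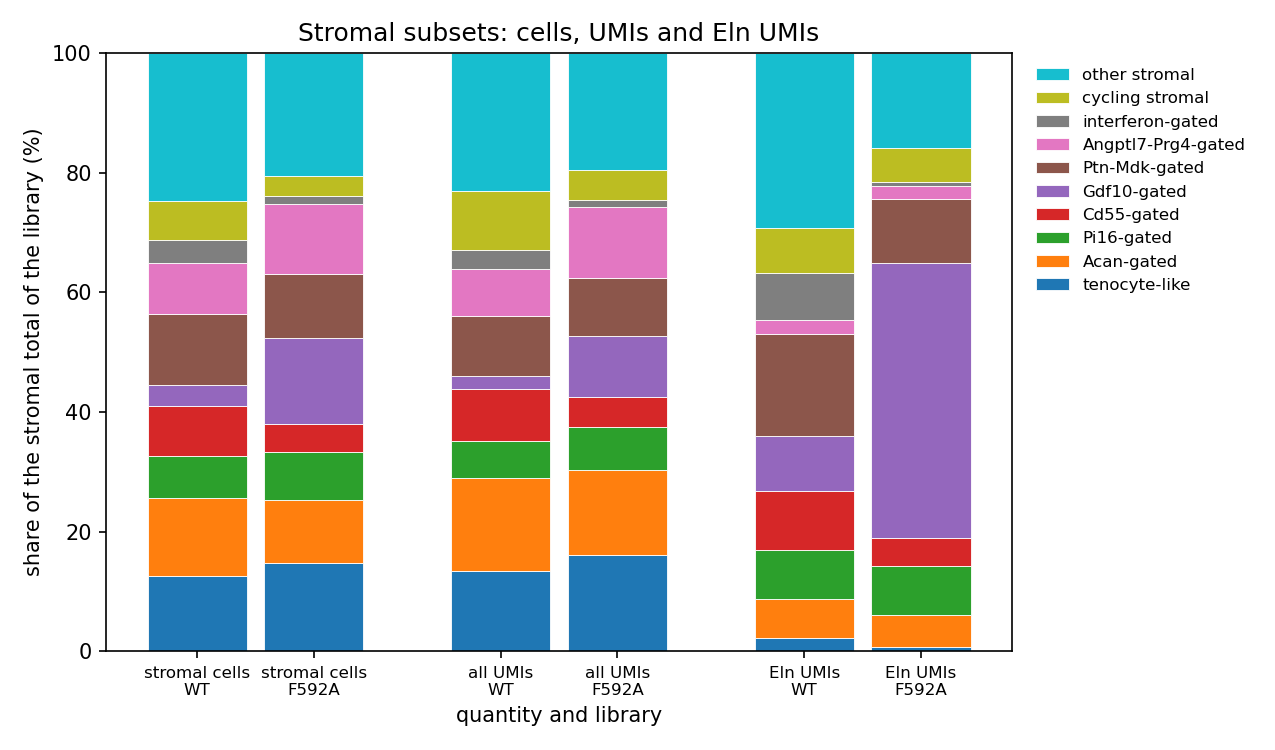
Stacked shares of stromal cells, of all stromal UMIs and of stromal Eln UMIs held by each of 10 subsets, for each library. The Gdf10-gated band widens from 9.17% of Eln UMIs in WT to 46.0% in F592A, while the tenocyte-like band is 2.18% and 0.646% of Eln UMIs.

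Outside the stroma, smooth muscle cells showed the largest Eln ratio of the gated types. These cells (228 in WT, 274 in F592A) were gated on Myh11, Acta2, Cnn1, Tagln, Lmod1, Myocd and Actg2, and all 7 genes were present in both libraries. They also carried Rgs5, a pericyte marker, at 8497 and 7247 CPM. Eln stood at 206 CPM in WT (588 UMIs) and at 697 CPM in F592A (2743 UMIs). The F592A library was 3.38-fold higher, a log2 ratio of 1.76 (1.63 to 1.89). After thinning, 25.6% of WT cells (20.0% to 31.7%) and 44.3% of F592A cells (38.3% to 50.4%) had an Eln UMI. Cells at 1000 CPM or more numbered 13 in WT, or 5.70%, and 52 in F592A, or 19.0%. The cell with the most Eln UMIs held 9.11% of them in F592A. Of the 4 members that passed the filter in smooth muscle, 1 was higher and 1 (Efemp2) lower by at least 1.5-fold, where 18.4% of 5754 genes were that far apart, 6.48% were higher and 2.05% were at least 2-fold higher.

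Other values moved with the Eln ratio in smooth muscle. Myh11, a contractile myosin, stood at 842 (WT) and 1618 (F592A) CPM (log2 ratio 0.94), while Acta2, smooth muscle actin, stood at 8429 and 6513 CPM (-0.37). The sum over the 7 smooth muscle markers was 16572 and 14661 CPM. The 8 stromal markers summed to 7077 CPM in WT and 5166 CPM in F592A, the 9 macrophage markers to 113 and 41.7 CPM, and the 3 red blood cell markers to 213 and 8.13 CPM. Among cells with at least 1000 CPM of Myh11, a split chosen after the values were seen, Eln stood at 280 CPM in 65 WT cells and 1173 CPM in 138 F592A cells (2.07). Among the remaining cells, 163 and 136, it stood at 177 and 211 CPM (0.26). Cells deeper than the median gave a log2 ratio of 2.67 and the others 0.38. The part of these in the Eln ratio was not tested.

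Pericytes held less Eln, 63.9 CPM in WT and 94.9 CPM in F592A, a log2 ratio of 0.57 (0.30 to 0.84). None of the 4 members that passed the filter there was at least 1.5-fold apart, where 11.4% of genes were. In blood endothelium Eln stood at 144 CPM in WT (999 UMIs) and 256 CPM in F592A (2382 UMIs), a log2 ratio of 0.83 (0.72 to 0.94). It was 1 of 5 members past the filter in that type and the only one at least 1.5-fold apart, where 9.52% of genes were apart and 2.2% were higher. The ratio was 0.73 in cells with at least 2 arterial markers, 0.63 in venular-marked cells and 1.41 in cells with neither, where the levels were lowest (38.9 and 104 CPM). It was 0.91 in the deeper cells and 0.95 in the others. The 9 blood endothelial markers summed to 5356 CPM in WT and 4935 CPM in F592A, and the 8 stromal markers to 1066 and 915 CPM. The part of stromal RNA in the Eln ratio was not tested. In lymphatic endothelium Eln stood at 151 and 188 CPM (0.31, with an interval that reaches 0).

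**Figure D5:**
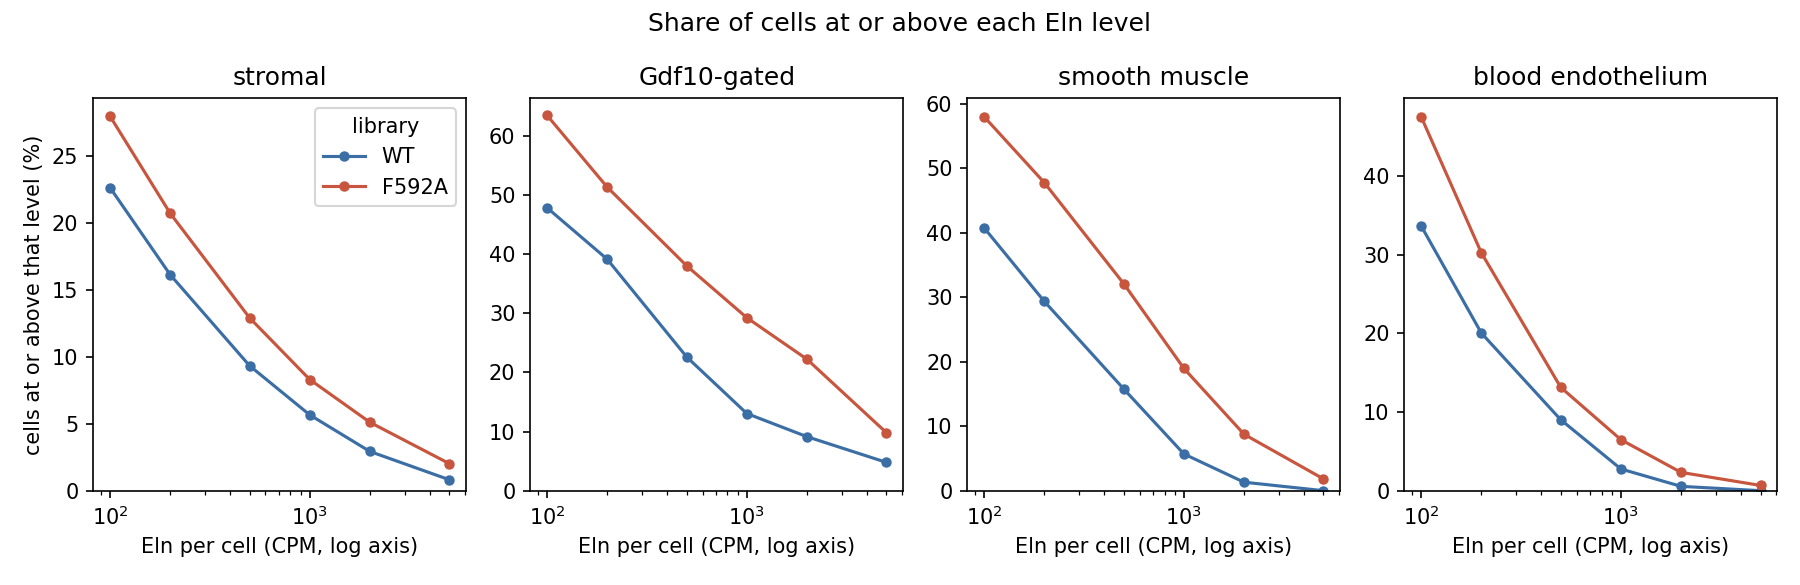
Share of cells (%) at or above each Eln level per cell (CPM, log axis) in stromal, Gdf10-gated, smooth muscle and blood endothelial cells of the WT and the F592A library. The F592A curve lies above the WT curve at every level shown; at 1000 CPM the shares are 5.70% and 19.0% in smooth muscle, and 2.76% and 6.48% in blood endothelium.

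The fibrillins differed from Eln in where they were high. Fbn1 (chromosome 2, 125300594 to 125507993, minus strand) encodes fibrillin-1, the main microfibril protein after birth. It stood in stromal cells at 965 (WT) and 794 (F592A) CPM, a log2 ratio of -0.28 (-0.29 to -0.27), short of 1.5-fold. The ratio was -0.17 without Cd55-gated cells and -0.09 with all stromal subsets weighted equally. Fbn1 was highest in Cd55-gated cells, gated on Cd55, Prss23 and Cd248, at 3326 and 3363 CPM. It was lowest in tenocyte-like cells, at 374 and 367 CPM, so that the subsets spanned 8.88-fold in WT and 9.15-fold in F592A. In each of the 10 subsets the libraries lay within 1.5-fold of each other. In smooth muscle Fbn1 stood at 298 (WT) and 207 (F592A) CPM (-0.53, -0.67 to -0.39), opposite in direction to Eln in the same cells. It was -0.80, past 1.5-fold, with a stricter marker gate and -0.30 after thinning. In the Myh11-high smooth muscle cells its ratio was -0.98. Pericytes stood at 259 and 233 CPM, lymphatic endothelium at 164 and 176 CPM and blood endothelium at 75.1 and 91.4 CPM.

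Fbn2 (chromosome 18, 58008623 to 58210487, minus strand) encodes fibrillin-2, known as the fibrillin of developing tissue. Its stromal level was 264 CPM in WT and 243 CPM in F592A (-0.12). The order of subsets differed from that of Fbn1. It was highest in Acan-gated cells, gated on Acan, Sox9 and other cartilage-type genes, at 428 and 487 CPM, and next in tenocyte-like cells in WT (336 CPM) and in cycling cells in F592A (295 CPM). It was lowest in Cd55-gated cells in WT (83.0 CPM) and in Pi16-gated cells in F592A (82.3 CPM). Over the 10 subsets the levels of Fbn1 and Fbn2 on a log scale had a Pearson correlation of -0.76 in WT and -0.51 in F592A. In Gdf10-gated cells, where Eln was highest, Fbn2 stood at 152 (WT) and 89.9 (F592A) CPM (-0.76). Vascular types held 0 to 14.2 CPM of Fbn2, near the 9.94 to 10.4 CPM of neutrophils.

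The microfibril-associated genes Mfap5 and Mfap4 also split by subset. Mfap5 (chromosome 6, 122505845 to 122529290, plus strand) encodes MAGP-2, a small microfibril protein. In stromal cells it stood at 1706 (WT) and 1371 (F592A) CPM, a log2 ratio of -0.32. It was highest in Cd55-gated cells (3374 and 3145 CPM). Its lowest levels were in Angptl7-Prg4-gated cells, at 874 and 610 CPM (-0.52). It was lower in F592A in 9 of the 10 subsets, by less than 1.5-fold in each, with Gdf10-gated cells the exception (1770 against 1847 CPM). In smooth muscle it stood at 73.0 and 91.4 CPM, under the neutrophil level in WT (110.6 CPM) and above it in F592A (43.8 CPM). In the Myh11-high smooth muscle cells it was 33.3 CPM in WT (27 UMIs) and 139 CPM in F592A (2.07), and in the others 88.7 and 42.6 CPM (-1.06). Of these levels only the 139 CPM lay above the neutrophil level of the same library. The ratio in the Myh11-high cells therefore sets it against a WT level under that of neutrophils, and in the others both levels lay under it. Macrophages stood lower than each of these levels, at 24.7 (WT) and 14.8 (F592A) CPM. Few smooth muscle cells carried Mfap5 in F592A: the top 10% of cells held 86.9% of its UMIs, against 69.7% in WT, and 7 cells against 1 reached 1000 CPM. The share of cells with an Mfap5 UMI was lower in F592A, at 24.8% against 33.8%, and at 7.3% against 11.9% after thinning.

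Mfap4 (chromosome 11, 61485431 to 61488900, plus strand) encodes a fibrinogen-like protein that binds elastin and fibrillin. Its stromal level was 540 CPM in both libraries (log2 ratio 0.00). This even total hid differences between subsets. Mfap4 was higher in F592A in Cd55-gated (137 against 172 CPM, 0.33), Angptl7-Prg4-gated (306 against 370 CPM, 0.27) and Gdf10-gated cells (640 against 755 CPM, 0.24). It was lower in Acan-gated cells (717 against 557 CPM, -0.37) and in interferon-gated cells (870 against 507 CPM, -0.78). The highest subset was interferon-gated in WT and Ptn-Mdk-gated in F592A (805 CPM), and Cd55-gated cells were lowest in both. In interferon-gated cells 5 of 10 members (Eln, Fbn2, Mfap4, Efemp1 and Fbln5) were lower by at least 1.5-fold, where 14.4% of genes were apart and 10.8% lower. That gate held 247 WT and 63 F592A cells. The gate's own genes were lower in F592A (Ifit1 -1.41, Ifit3 -1.27 and Isg15 -1.28 on the log2 scale) and tendon genes higher (Tnmd 1.35, Scx 1.28 and Mkx 1.38), and their part in the result was not tested. Vascular types were at background, with 8.07 and 5.59 CPM in smooth muscle beside 27.1 and 17.9 CPM in neutrophils.

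Among the fibulins, Fbln2 and Fbln5 were also read in endothelium. Fbln2 (chromosome 6, 91212455 to 91272540, plus strand) encodes fibulin-2, which binds fibrillin and elastin and is found in vessel walls. Stromal cells stood at 853 (WT) and 876 (F592A) CPM (0.04), with the subsets between 544 and 1162 CPM. Blood endothelium stood at 354 CPM in WT (2459 UMIs) and 503 CPM in F592A (4681 UMIs), a log2 ratio of 0.51 (0.44 to 0.58), short of 1.5-fold. It passed 1.5-fold with TMM or median-of-ratios scaling (0.60 each) and after thinning (0.61). The ratio was 0.51 in arterial-marked cells, 0.30 in venular-marked cells and 0.75 in cells with neither. After thinning, 43.9% of WT (39.6% to 48.2%) and 56.8% of F592A endothelial cells (52.7% to 60.8%) had a UMI, against 10.3% and 7.6% of neutrophils. In lymphatic endothelium it stood at 125 and 241 CPM (0.94, 0.63 to 1.26). That made it the member at least 1.5-fold apart among the 4 that passed there, where 19.5% of genes were apart and 4.87% higher. The 12 WT and 4 F592A Schwann cells gave 24 and 30 Fbln2 UMIs, too few cells to compare. Smooth muscle held 14.7 and 10.2 CPM, under the neutrophil level.

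Efemp1 and Efemp2 encode fibulin-3 and fibulin-4. Fibulin-4 is known to bring lysyl oxidase to elastin and is needed for elastic fibres, whereas fibulin-3 is found mainly in fascia and loose connective tissue. Efemp1 (chromosome 11, 28853204 to 28926743, plus strand) varied widely over the stroma. It stood at 182 (WT) and 193 (F592A) CPM in Cd55-gated cells, at 104 and 144 CPM in Pi16-gated cells, and at 0.906 and 1.67 CPM in tenocyte-like cells. Tenocyte-like and Acan-gated levels (2.69 and 1.91 CPM) did not exceed those of neutrophils, 8.35 and 1.99 CPM, so no fold over the lowest subset is given. These neutrophil levels rest on few UMIs: after thinning, 2 of 156 WT and 1 of 119 F592A neutrophils had an Efemp1 UMI. Macrophages stood at 0.997 and 0.523 CPM. The stromal level was 34.9 CPM in WT and 28.0 CPM in F592A (-0.32), -0.12 without Cd55-gated cells and -0.01 with cells thinned to 2000 UMIs. In cycling stromal cells it stood at 57.2 (WT) and 20.0 (F592A) CPM (-1.51), and in Ptn-Mdk-gated cells at 18.6 and 9.04 CPM.

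The 250 bases before the start of Efemp1 (chr11:28852955-28853204, plus strand) are printed as those of the member that was highest in Cd55-gated and near background in tenocyte-like cells. They are from RefSeq (build GRCm38.p6), 5′ to 3′ on the strand of the gene, and upstream regions were read for 6 of the 10 genes. Matches to 4 motifs on both strands are in capitals: the GC box GGGCGG, the TATA box TATAAA, the AP-1 motif TGANTCA and the E-box CACGTG. Of 32851 upstream regions of this length in the table, 32.7% held a GC box, 12.4% a TATA box, 6.75% an AP-1 motif and 6.02% an E-box. Efemp1 held 1 GC box and 1 AP-1 motif. A match describes the letters and does not show that a factor binds.
Efemp1: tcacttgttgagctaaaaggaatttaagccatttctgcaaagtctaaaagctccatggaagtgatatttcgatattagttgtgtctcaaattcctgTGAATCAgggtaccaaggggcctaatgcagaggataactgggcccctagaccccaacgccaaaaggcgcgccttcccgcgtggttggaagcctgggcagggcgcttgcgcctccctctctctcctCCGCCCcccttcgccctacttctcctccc

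Efemp2 (chromosome 19, 5473954 to 5482517, plus strand) stood in stromal cells at 189 (WT) and 154 (F592A) CPM (-0.30). Over the stromal subsets it spanned 1.77-fold in WT and 2.28-fold in F592A. It was highest in Pi16-gated cells, at 262 and 263 CPM. In smooth muscle it stood at 93.7 CPM in WT (267 UMIs) and 61.2 CPM in F592A (241 UMIs), a log2 ratio of -0.61 (-0.87 to -0.36). Pericytes stood at 75.8 and 64.9 CPM. Its gene overlaps Mus81 on the other strand, and the sources used here do not say whether counting used strand. Fbln1 (chromosome 15, 85205949 to 85286535, plus strand) encodes fibulin-1, a fibulin of basement membranes and elastic fibres. It stood in stromal cells at 62.6 (WT) and 73.8 (F592A) CPM (0.24), and the ratio was -0.01 without Gdf10-gated cells. It was highest in Gdf10-gated cells, at 222 and 208 CPM, and next in Pi16-gated cells, at 178 and 149 CPM. In vascular types it stayed between 0.575 and 6.92 CPM.

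Fbln5 (chromosome 12, 101746565 to 101819055, minus strand) encodes fibulin-5, which binds elastin and is needed for elastic fibre formation. It was the only member whose highest level lay outside the stroma in both libraries. Lymphatic endothelium stood at 238 CPM in WT (210 to 270) and 237 CPM in F592A (208 to 269). Next came tenocyte-like cells (174 and 166 CPM), and blood endothelium stood at 122 and 139 CPM (0.18). The lymphatic level was measured on 90 WT and 86 F592A cells. The stromal level was 131 CPM in WT and 128 CPM in F592A (-0.03). The stromal subsets spanned only 2.18-fold in WT and 1.92-fold in F592A. In smooth muscle, where Eln differed most, Fbln5 stood at 10.2 and 12.2 CPM. The 250 bases before the first start of Fbln5 (chr12:101819120-101819369, minus strand, RefSeq, GRCm38.p6) are shown as those of the member whose own highest level lay in lymphatic endothelium. They hold 2 GC boxes, in capitals, and none of the other 3 motifs. The 250 bases before another start of Fbln5 (chr12:101818485-101818734, not printed) hold none of the motifs.
Fbln5: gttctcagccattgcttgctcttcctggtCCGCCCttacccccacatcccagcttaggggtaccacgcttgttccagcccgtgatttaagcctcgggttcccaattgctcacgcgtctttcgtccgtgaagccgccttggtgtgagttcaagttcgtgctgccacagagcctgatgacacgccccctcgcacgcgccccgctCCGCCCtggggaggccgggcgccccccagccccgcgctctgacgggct

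For each of the 10 genes the range over stromal subsets within a library exceeded the stromal ratio between libraries. That range takes the highest and lowest of 10 subsets gated to differ, and the ratio pools them. The comparison therefore does not weigh cell type against genotype. For Eln in F592A and for Efemp1 the lowest subset did not exceed the neutrophil level. Over the 10 stromal subsets, log2 levels of Fbn1 and Efemp1 had a Pearson correlation of 0.93 in WT and 0.91 in F592A. For Fbn1 and Mfap5 it was 0.89 and 0.81, and for Efemp1 and Efemp2 0.89 and 0.90. Mfap4 went with Fbln5 (0.92 and 0.77) and against Fbn1 (-0.80 and -0.84). Eln went with Mfap5 (0.64 and 0.71) and Fbln1 (0.70 and 0.62), and against Fbn2 (-0.31 and -0.41). These are descriptions over subsets of 1 library each, which share that library's depth and gates. In cells thinned to 2000 UMIs, the median stromal cell held UMIs of 4 of the 10 genes in both libraries. The median was 1 in smooth muscle, pericytes and endothelium, and 0 in leukocytes.

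The genes most like each member were taken over 36 points, 18 types in each library, from 9472 genes. For Eln they were Igf2 (Pearson r 0.88), Tfpi2 (0.88) and Gata6 (0.87), and for Fbn1 they were Fstl1 (0.98), Bmp1 (0.96) and Fhl1 (0.96). For Fbn2 they were Ecrg4 (0.98), Sox9 (0.97) and C1qtnf3 (0.97), for Mfap4 Itgbl1 (0.98), Ogn (0.98) and Cpxm1 (0.98), and for Mfap5 Dclk1 (0.98), Lum (0.98) and Loxl1 (0.97). For Fbln1 they were AW551984 (0.96), Dpt (0.95) and Zfhx4 (0.95), and for Fbln2 Ddah1 (0.95), Mest (0.94) and Prrg3 (0.94). For Efemp1 they were Ces2g (0.90), Tmeff2 (0.89) and Cd34 (0.88), for Efemp2 Shc2 (0.98), Col5a2 (0.98) and Antxr1 (0.98), and for Fbln5 Zfp521 (0.97), S100a16 (0.95) and Fam171a2 (0.95). Sox9, Lum and Dpt are gate markers, so their likeness is partly set by the gates. Eln and Efemp1 had the lowest values of the 10, so no gene followed them as closely.

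Genes that assemble, crosslink or degrade elastic fibres were read from a list of 51 in 6 groups. In stromal cells 37 passed the filter, of which 0 were higher and 3 lower by at least 1.5-fold, beside the 3.54% of all genes that were apart. Their median log2 ratio was -0.06, beside -0.10 over all genes. The 3 were Hmcn1, a large fibulin-family protein (40.2 against 21.6 CPM, -0.90), Itgb3, an integrin chain (21.2 against 10.2 CPM, -1.05), and Lgals3, galectin-3 (713 against 475 CPM, -0.59). Lgals3 is known as a macrophage gene, and the macrophage markers in stromal cells were also lower in F592A, as given above. The part of this in the 3 ratios was not tested.

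The crosslinking enzymes did not follow Eln in size. Lox, which crosslinks elastin and collagen, stood at 740 and 770 CPM (0.06), and Loxl1, which acts on elastin, at 312 and 379 CPM (0.28). Among the latent TGF-beta binders Ltbp4, needed for elastic fibre assembly, stood at 121 and 160 CPM (0.40) and Ltbp3 at 215 and 214 CPM (-0.01). Of the microfibril-associated genes Bgn, biglycan, stood at 4854 and 4360 CPM (-0.15) and Vcan, versican, at 505 and 418 CPM (-0.27). Furin, a protease of the secretory route, stood at 79.4 and 82.3 CPM (0.05) and Rin2, a trafficking protein, at 66.2 and 82.4 CPM (0.32). Itgb5, an integrin chain, stood at 168 and 155 CPM (-0.11). The inhibitors Cst3 and Timp2 stood at 1605 and 1649 CPM (0.04) and at 2836 and 2911 CPM (0.04).

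In smooth muscle 27 of the 51 genes passed, of which 2 were higher and 7 lower by at least 1.5-fold, where 6.48% and 11.9% of all genes were. The 2 higher genes were Ltbp1, a binder of latent TGF-beta (26.3 against 76.7 CPM, 1.54), and Emilin1, an elastic fibre glycoprotein (19.6 against 52.3 CPM, 1.41). The 7 lower genes were Loxl2, Mfap2, Lgals3, Ctsk, Ctsl, Ctss and Timp1. Ctss is known as a macrophage gene, and the macrophage markers in these cells summed to 113 CPM in WT and 41.7 CPM in F592A. The part of macrophage RNA in the ratio of Ctss or of the other lower genes was not tested. Mfap2, which encodes MAGP-1, stood at 84.2 and 38.9 CPM (-1.12). In blood endothelium 18 passed, of which 0 were higher and 2 (Lgals3 and Ctsl) lower, where 7.32% of all genes were lower. No crosslinking enzyme of the list passed there.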

How the data were processed

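The deposited matrices hold UMI counts per gene and cell barcode. The authors made them with Cell Ranger, version 6.0.1 per the file headers and 2.1.1 per the submitters' processing notes, which also name Seurat and mm10. No further step of theirs changes the deposited counts as far as the sources say. The members and lists were chosen with earlier results of these data known.

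Cells with at least 500 genes, 1000 UMIs and at most 15% mitochondrial UMIs were kept, and doublets called by Scrublet (342 WT, 220 F592A) were left out with Python 3.11.15 and scanpy 1.11.5. The libraries held 222874195 (WT) and 181472230 (F592A) UMIs. Cell types were gated per cell on markers per 10000 UMIs, with a least score and number of markers. Cells of several types (171 and 111) or none (535 and 424) were left out. Stromal subsets took the list with the highest standardised score of at least 1.0, or at least 3 cycling markers. UMIs were summed per type and library. With 1 library per genotype no test was run; a gene was called at 1.5-fold, given 100 UMIs over both libraries and 20 CPM in the higher one. Poisson and binomial intervals are exact (scipy 1.17.1). The ratio step was tested on simulated counts.

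Named assembly genes are those called in stromal cells and the 2 highest of each of the 6 groups. In smooth muscle and endothelium those called were named after their values were seen. Genes most like a member are the 3 with the highest Pearson r of log2(CPM + 1), leaving out unnamed gene models. Of 32285 features, 32158 matched GENCODE M21, whose coordinates are given. Eln, Fbn1, Fbn2, Mfap4 and Efemp2 overlap a gene on the other strand. Alternatives were TMM (edgeR 4.0.16), median-of-ratios, filters, doublets, thinning, cell means, clusters without the 10 genes, stricter gates and subsets left out. The level of the targeted gene is not reported here.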

Additional observations from a re-analysis of the deposited data

How the results depend on the processing

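The count of members at least 1.5-fold apart in stromal cells was 1, Eln, and stayed 1 with the same gene in 12 of 16 alternatives. It was 0 with at most 10% mitochondrial UMIs (Eln log2 ratio 0.58), with stromal subsets weighted equally (0.25), without cycling stromal cells (0.57) and without Gdf10-gated cells, where the Eln ratio reversed to -0.015. The last was chosen after seeing the data, as were those without Cd55-gated, tenocyte-like or interferon-gated cells and without barcodes found in both libraries. Over the alternatives run for it, Eln ranged from 1.44 to 2.08 in smooth muscle and from 0.74 to 0.92 in blood endothelium. Scaling by TMM or median-of-ratios raised every stromal ratio by 0.08 or 0.07 and turned the sign of Fbln5 (0.05 and 0.04). Signs also turned for Fbln1 (-0.09 with equal weights), Fbln2 (-0.04 thinned) and Mfap4 (-0.11 to 0.08). The cause of these shifts was not tested. The highest type of each member was the same by cell means and after thinning, except for Fbln2. No paired analysis was possible because each genotype has 1 library.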
